A study of Mus musculus with 47 samples.

Results

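Foxa2-/- cells at day 7.5 of differentiation (2 libraries) were compared with WT cells of the same day (3 libraries), 5 of the 47 libraries of the series. In both groups mouse embryonic stem cells had been grown in N2B27 monolayers and given retinoic acid up to day 3.5 and the Smoothened agonist SAG up to day 7.5. The mutant cells carry the line label C57BL/6 and the WT cells E14.5, so genotype and line cannot be told apart. How the Foxa2 allele was made, and whether the mutant line is 1 clone, is not given in the sources used here. In both groups the cells had been sorted for the surface protein prominin, and the prominin-positive cells were sequenced after poly-A selection with a stranded kit. All genes at FPKM (fragments scaled per kilobase of transcript and per library depth) of 1 or more in at least 2 libraries of the table of days 3.5 to 7.5 were tested, 17124 in all. In bulk RNA, fewer cells of a type and less RNA per cell cannot be told apart.

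The floor plate is the ventral midline of the developing neural tube. It secretes Sonic hedgehog (SHH), which patterns the neighbouring progenitors through the receptor Ptch1 and the Gli transcription factors, and it guides axons with netrin and Slit proteins. Foxa2 is a forkhead transcription factor that the floor plate needs. The p3 progenitors beside the floor plate express Nkx2-2, and in the hindbrain they give rise to visceral motor neurons and later to serotonergic neurons.

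The libraries held an estimated 29100000 and 26600000 fragments in Foxa2-/- cells and 19000000, 15500000 and 19300000 in WT cells. Log2(FPKM + 1) correlated across genes at r = 0.926 between the Foxa2-/- libraries and at 0.952 to 0.960 between WT libraries. The Foxa2-/- libraries differed from each other by more than 1 log2 unit in 1948 genes (11.4%), against 406 to 816 genes (2.37% to 4.77%) between pairs of WT libraries. Their values at high and low GC content also differed, with slopes of -0.172 and 0.310 log2 units per 10 points of GC in Foxa2-/- libraries and 0.158 to 0.223 in WT libraries. Whether replicates came from separate cultures is not given in the sources used here, and the p-values measure the spread between libraries, pooled over all 28 libraries of the table in 10 groups. With 2 against 3 libraries an exact permutation test cannot go below p = 0.1, so calls rest on limma (Benjamini-Hochberg adjusted p under 0.05). Fold changes are on the log2(FPKM + 1) scale with their standard error (SE), which understates changes of genes at low FPKM. Of the neural progenitor markers all 8 averaged 1 FPKM or more in both groups and summed to 2209 and 2759 FPKM in Foxa2-/- cells and to 3418, 3903 and 3864 FPKM in WT cells. Of 8 floor plate markers 2 averaged 1 FPKM or more in Foxa2-/- cells, against all 8 in WT cells, so the marker check of the WT cells gave both neural progenitor and floor plate genes.

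At day 7.5, 4411 of 17124 genes were called (25.8%), 2336 higher in Foxa2-/- cells (13.6%) and 2075 lower (12.1%). Large differences were more often decreases, with 345 called genes lower by more than 2 log2 units and 148 higher by more than 2. The count fell to 2015 (795 higher and 1220 lower) with only the 5 libraries of day 7.5 in the fit, and to 2315 (957 and 1358) without Foxa2-/- replicate 1. Of 638 genes in 45 lists, 543 were tested, 88 stayed below 1 FPKM in all but at most 1 library of the table and 7 were not analysed here. Of the 543, 241 were called, 56% of them higher. The counts per list given below are to be read beside 13.6% of all genes called higher and 12.1% lower. The lists with the highest share of members called lower were floor plate (15 of 15) and motile cilia (16 of 21), and those with the highest share called higher were mitosis (16 of 17), p3 and ventral progenitor factors and LIN28 and IGF2BP timing (5 of 8 each), among lists with at least 8 members tested.

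**Figure D1:**
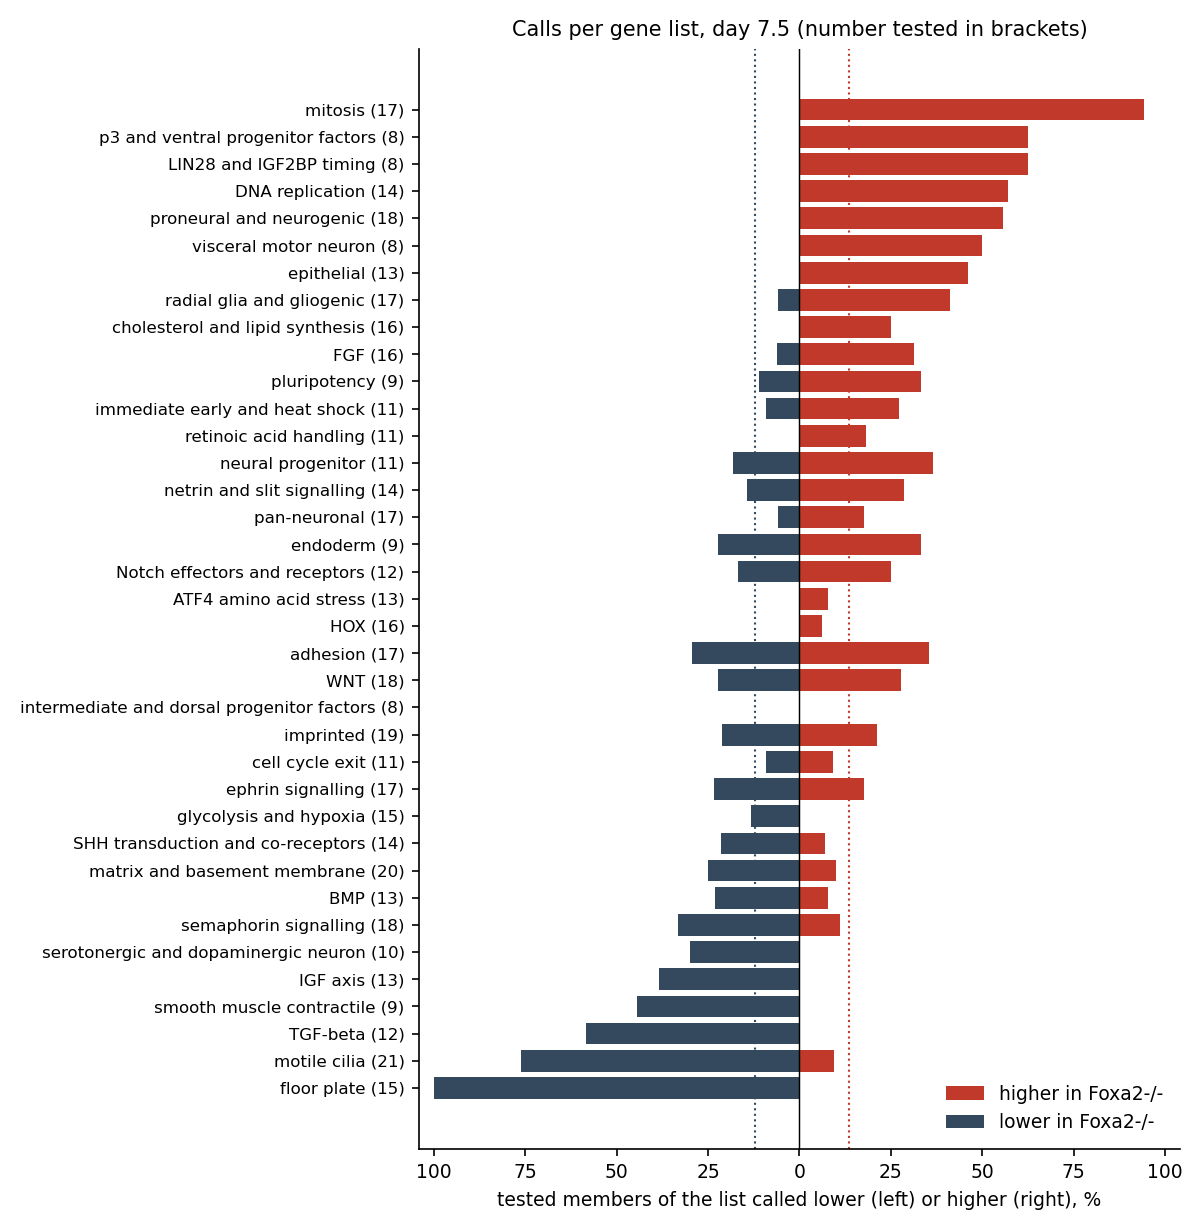
Share of tested members called lower (left, dark) or higher (right, red) in Foxa2-/- cells at day 7.5, in percent, for each gene list with at least 8 members tested (number tested in brackets). Dotted lines mark the shares over all 17124 genes, 12.1% lower and 13.6% higher; all 15 floor plate genes tested lie on the left and 16 of 17 mitosis genes on the right.

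Foxa2 itself (ENSMUSG00000037025, GRCm38 chromosome 2, 148042877 to 148046969) stood at 0.0599 and 0.0974 FPKM in Foxa2-/- cells and at 93.3, 69.3 and 75.6 FPKM in WT cells. The libraries thus fit their genotype labels, and Foxa2 fell by 6.21 (SE 0.21, adjusted p = 1.67e-14). Of 16 floor plate genes 15 were tested, all 15 were called lower, and their median log2 fold change was -5.07, against 0.0432 over all genes. The libraries of the groups did not overlap for any of the 15, which held for 47.4% of all genes. Their FPKM summed to 349 and 561 in Foxa2-/- cells and to 4005, 4188 and 4405 in WT cells. Between 13 and 16 members were called in each alternative setting. The one below the filter was Lmx1a, a LIM homeobox gene, at 0.0914 and 0.0626 FPKM in Foxa2-/- cells and 1.49, 0.287 and 0.311 in WT cells.

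Sequence upstream of the transcription start is shown for 2 floor plate genes, Foxa1 and Corin, for Vtn, the gene with the largest fall of those named, and for Nkx2-2, which defines p3. These are the 250 bases before the RefSeq start on build GRCm38.p6, in the direction of transcription, with matches to the forkhead motif TGTTTAC, searched on both strands, in capitals. For Nkx2-2 the RefSeq start of the table lies inside the span that GENCODE gives the gene, so the bases shown are within that span, and for Vtn the last of them overlap it.
Foxa1 (chr12:57546112-57546361, minus strand): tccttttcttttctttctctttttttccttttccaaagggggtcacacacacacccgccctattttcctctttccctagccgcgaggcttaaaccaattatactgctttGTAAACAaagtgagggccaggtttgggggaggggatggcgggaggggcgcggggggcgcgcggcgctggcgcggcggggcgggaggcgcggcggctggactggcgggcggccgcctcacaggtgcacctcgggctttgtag
Corin (chr5:72504541-72504790, minus strand): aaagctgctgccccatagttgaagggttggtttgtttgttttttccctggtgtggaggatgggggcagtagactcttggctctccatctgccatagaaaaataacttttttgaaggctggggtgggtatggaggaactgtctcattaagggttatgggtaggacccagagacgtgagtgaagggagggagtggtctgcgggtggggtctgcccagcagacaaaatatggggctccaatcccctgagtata
Vtn (chr11:78498870-78499119, plus strand): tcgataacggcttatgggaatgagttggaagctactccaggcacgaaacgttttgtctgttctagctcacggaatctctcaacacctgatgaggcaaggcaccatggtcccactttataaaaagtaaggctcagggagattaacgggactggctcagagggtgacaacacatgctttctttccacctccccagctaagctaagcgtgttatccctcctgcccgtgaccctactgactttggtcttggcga
Nkx2-2 (chr2:147186403-147186652, minus strand): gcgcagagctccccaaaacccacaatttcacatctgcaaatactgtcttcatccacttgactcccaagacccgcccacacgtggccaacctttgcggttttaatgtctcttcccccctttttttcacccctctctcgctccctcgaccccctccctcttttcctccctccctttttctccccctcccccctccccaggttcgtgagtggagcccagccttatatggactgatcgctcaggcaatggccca
A match stood in Foxa1 on the opposite strand and in none of the other 3. Of the 9 floor plate genes with an entry in the RefSeq table, Foxa1 was the only one with these letters. They were found in 3.26% of 1379 genes called lower and in 2.77% of 1518 genes called higher, against 2.65% of the 9959 tested genes with an entry and 3.17% of all 32851 promoters of this length. The motif GACCACCCA, which Gli factors bind, was in 0 of the 3 SHH target genes with an entry. It was in 0.461% of genes called higher (7 genes) and in 0.218% of genes called lower. The share was 0.211% of the tested genes and 0.225% of all promoters. These are matches of letters and show no binding. A gene was counted if any of its promoters matched, while the share over all promoters counted each promoter.

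Of the transcription factors of the floor plate list, some were near 0 in the mutant. Foxa1, the closest relative of Foxa2, stood at 0.390 and 0.540 FPKM in Foxa2-/- cells and at 61.6, 45.2 and 50.2 FPKM in WT cells (log2 fold change -5.18, SE 0.25). Ferd3l, a basic helix-loop-helix factor, stood at 0.1 and 0.0549 FPKM in Foxa2-/- cells and at 97.4, 116 and 132.6 FPKM in WT cells (-6.74, SE 0.25). For both genes every Foxa2-/- library was below 1 FPKM and every WT library above 40 FPKM. Lmx1b fell less evenly, with 2.56 and 11.7 FPKM in Foxa2-/- cells and 21.4, 33.0 and 30 FPKM in WT cells (-2.09, SE 0.52, adjusted p = 0.00518), and its call ended without Foxa2-/- replicate 1 or with only the day 7.5 libraries.

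Among the secreted and surface products, Shh (chromosome 5, 28456815 to 28467256) stood at 0.151 and 0.347 FPKM in Foxa2-/- cells and at 232, 270 and 255 FPKM in WT cells. It fell by 7.66 (SE 0.21, adjusted p = 7.19e-16). Corin, a transmembrane serine protease used to isolate floor plate cells (chromosome 5, 72300025 to 72504473), had 0.147 and 0.0795 FPKM in Foxa2-/- cells and 329, 246 and 270 FPKM in WT cells, a fall by 7.98 (SE 0.59). Both were near 0 in each mutant library and above 200 FPKM in each WT library. Cmtm8 stood at 4.45 and 4.05 FPKM in Foxa2-/- cells and at 224, 239 and 244 FPKM in WT cells.

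The guidance and matrix genes of the list kept a level in the mutant. Slit2, a repellent of crossing axons, had 18.6 and 17.1 FPKM in Foxa2-/- cells and 559, 644 and 701 FPKM in WT cells (-5.07, SE 0.40). Ntn1, the chemoattractant netrin 1, had 51.2 and 103 FPKM in Foxa2-/- cells and 547, 635 and 689 FPKM in WT cells (-3.08, SE 0.32). Spon1 (F-spondin) had 39.9 and 58.5 FPKM in Foxa2-/- cells and 479, 629 and 574 FPKM in WT cells (-3.50, SE 0.28). All 3 stayed above 15 FPKM in both mutant libraries. Sulf1, which edits heparan sulphate, had 108 and 144 FPKM in Foxa2-/- cells and 671, 619 and 683 FPKM in WT cells. Slit1 had 105 and 202 FPKM in Foxa2-/- cells and 532, 491 and 533 FPKM in WT cells, and its call (-1.82, SE 0.45) ended without Foxa2-/- replicate 1. Slit3 fell by 1.75 (SE 0.23).

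**Figure D2:**
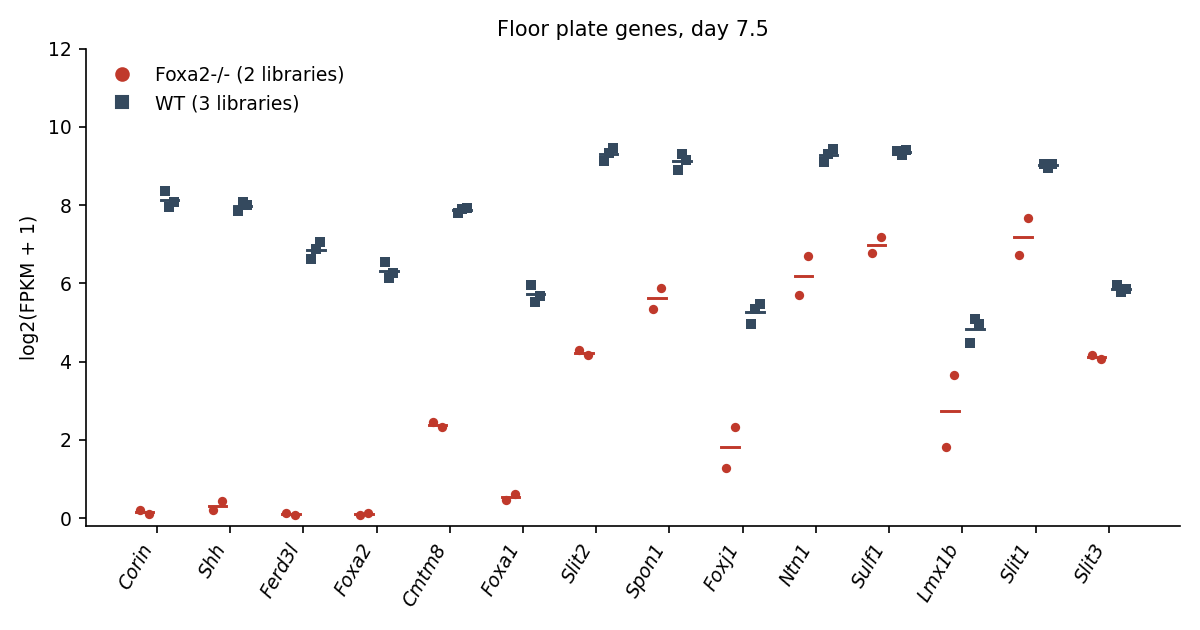
Log2(FPKM + 1) of 14 of the 15 floor plate genes tested, in each library of day 7.5, ordered by fold change; red circles are the 2 Foxa2-/- libraries, dark squares the 3 WT libraries, and short lines their means. The groups do not overlap for any gene shown; Corin, Shh, Ferd3l, Foxa2 and Foxa1 lie below 1 in every Foxa2-/- library, while Sulf1, Slit1, Ntn1 and Spon1 stay above 5.

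Among the largest falls under the naming rule, Corin, Shh, Ferd3l and Foxa2 belong to the floor plate list. Outside it the falls were led by Vtn, which encodes the adhesive matrix protein vitronectin (chromosome 11, 78499091 to 78502324). Vtn stood at 0.902 and 2.11 FPKM in Foxa2-/- cells and at 1742, 1700 and 1955 FPKM in WT cells, a fall by 9.53 (SE 0.44, adjusted p = 1.91e-12). Alcam, an adhesion molecule of growing axons, had 0.801 and 2.40 FPKM in Foxa2-/- cells and 319, 285 and 328 FPKM in WT cells (-6.97, SE 0.27). Kitl, the ligand of the receptor Kit, had 1.46 and 1.23 FPKM in Foxa2-/- cells and 219, 226 and 246 FPKM in WT cells (-6.63, SE 0.30). Each of these genes was high in all WT libraries and below 3 FPKM in both mutant libraries. Metrnl, which encodes a secreted meteorin-like factor, fell by 6.51, Ccdc3 by 6.13 and the leucine-rich glioma-inactivated family gene Lgi3 by 6.01.

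Of 8 p3 and ventral progenitor factors 5 were called higher (13.6% of all genes), none lower, with a median of 1.78. Nkx2-2 (chromosome 2, 147177546 to 147194243) stood at 42.7 and 56.9 FPKM in Foxa2-/- cells and at 5.52, 7.90 and 5.92 FPKM in WT cells, a rise by 2.77 (SE 0.32, adjusted p = 1.94e-06). Nkx2-9, its close relative, had 5.66 and 2.90 FPKM in Foxa2-/- cells and 0.445, 0.182 and 0.195 FPKM in WT cells (2.01, SE 0.41). Both p3 genes were higher in each mutant library than in any WT library. Nkx6-2, a homeobox gene of ventral progenitors, had 14.1 and 47.0 FPKM in Foxa2-/- cells and 4.31, 3.23 and 3.01 FPKM in WT cells (2.59, SE 0.54, adjusted p = 0.00133), and its call ended with only the day 7.5 libraries. Olig2, which marks motor neuron and later oligodendrocyte progenitors, had 1.81 and 7.61 FPKM in Foxa2-/- cells and 0.0940, 0.0577 and 0.209 FPKM in WT cells. Its relative Olig1 had 0.296 and 4.31 FPKM in Foxa2-/- cells and 0.0267, 0.0328 and 0.132 FPKM in WT cells. The rises of Olig2 (2.14, adjusted p = 0.0178) and Olig1 (1.3, adjusted p = 0.0377) were not called without Foxa2-/- replicate 2 or with only the day 7.5 libraries, and that of Olig1 also without any of the WT libraries, with quantile normalization or with no filter. Nkx6-1 (0.60, adjusted p = 0.151), Neurog3 (1.54, adjusted p = 0.155) and Sim1 (0.70, adjusted p = 0.26) were not called.

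SHH signalling genes were held in 2 lists. Of 6 feedback targets, which the pathway itself switches on, 4 were called higher (66.7%, against 13.6% of all genes) and none lower. Their median was 1.53. Ptch1, the SHH receptor (chromosome 13, 63508328 to 63573598), stood at 92.7 and 142 FPKM in Foxa2-/- cells and at 27, 33.4 and 32.9 FPKM in WT cells (1.86, SE 0.23, adjusted p = 3.32e-06). Mycn, a driver of progenitor growth, had 26.1 and 14.6 FPKM in Foxa2-/- cells and 5.57, 4.25 and 2.88 FPKM in WT cells (2.01, SE 0.33). Both were raised in each mutant library. Gli1, the activator whose level tracks the pathway, had 7.52 and 2.34 FPKM in Foxa2-/- cells and 0.955, 0.503 and 0.449 FPKM in WT cells (1.72, SE 0.45, adjusted p = 0.00732). With only the day 7.5 libraries or without Foxa2-/- replicate 1, Gli1 was not called. Hhip, an antagonist that binds SHH, missed the threshold at 12.4 and 18.5 FPKM in Foxa2-/- cells and 8.79, 6.31 and 8.06 FPKM in WT cells (0.90, adjusted p = 0.0621). Ccnd1 (cyclin D1) differed by -0.09 (adjusted p = 0.929), with 46.6 and 15.1 FPKM in Foxa2-/- cells and 37.7, 22.6 and 27 FPKM in WT cells.

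The 14 genes of SHH transduction and reception had a median of -0.04. Of these 1 was called higher (7.1%) and 3 lower (21.4%), against 13.6% and 12.1% of all genes. The co-receptor gene Cdon fell to 2.38 and 3.09 FPKM in Foxa2-/- cells, against 18.4, 15.4 and 17.2 FPKM in WT cells (-2.27, SE 0.38). Hhat, which attaches palmitate to SHH, fell by 0.95 (SE 0.23) and Disp1, which releases it from cells, by 0.94 (SE 0.31). Gli2 rose by 1.01 (SE 0.31) at a low level, 1.70 and 2.38 FPKM in Foxa2-/- cells and 0.662, 0.368 and 0.491 FPKM in WT cells. The call of Gli2 ended without either Foxa2-/- replicate or WT replicate 2 or with array weights, and that of Disp1 without Foxa2-/- replicate 1, WT replicate 2 or WT replicate 3 or with only the day 7.5 libraries. The transducer gene Smo was not called (-0.22, adjusted p = 0.389).

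**Figure D3:**
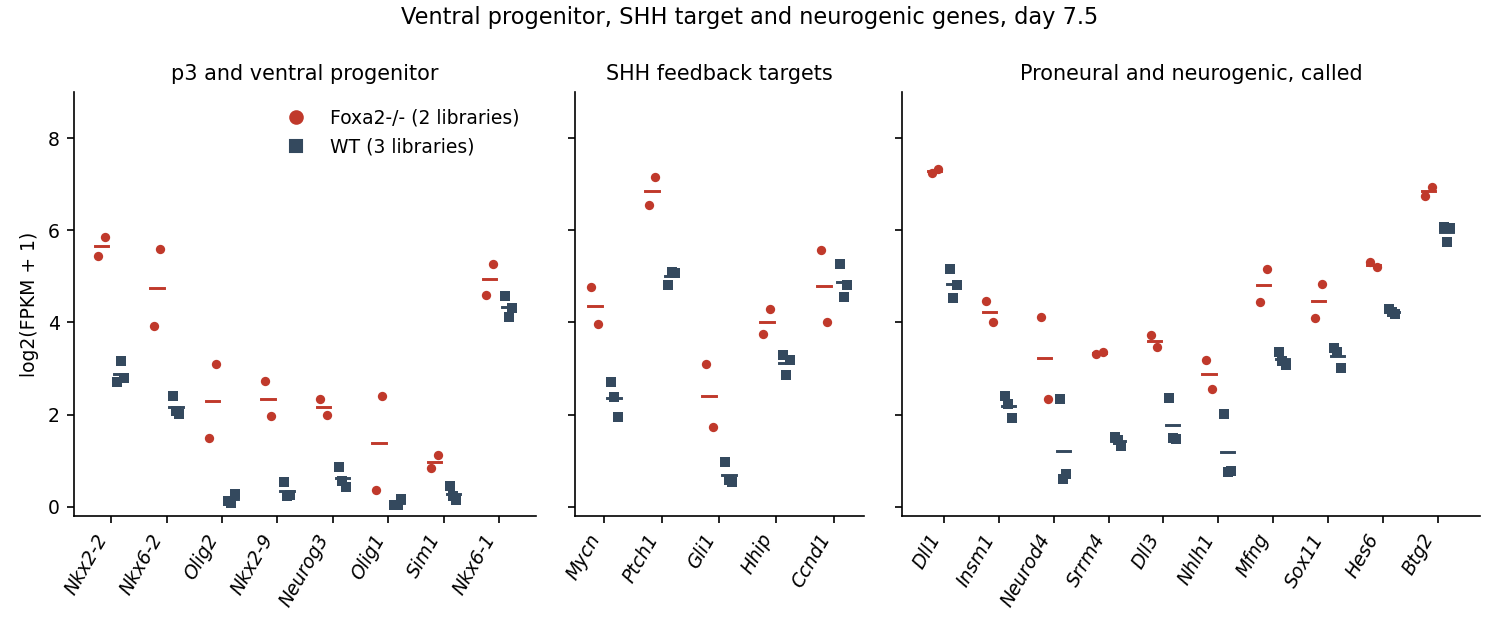
Log2(FPKM + 1) in each library of day 7.5 for p3 and ventral progenitor factors (left), 5 of the 6 SHH feedback targets (middle) and the 10 called genes of the proneural and neurogenic list (right); red circles are the 2 Foxa2-/- libraries, dark squares the 3 WT libraries, and short lines their means. Nkx2-2, Ptch1, Mycn and Dll1 are higher in both Foxa2-/- libraries, while Olig1, Olig2 and Gli1 lie further apart between them.

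Genes of early neurogenesis were higher in the mutant, and genes of mature neurons mostly did not pass the test. Of 18 proneural and neurogenic genes 10 were called higher, none lower, with a median of 1.11. Dll1, a Notch ligand of newborn neurons, stood at 151 and 159 FPKM in Foxa2-/- cells and at 35.0, 22.1 and 27.1 FPKM in WT cells (2.45, SE 0.39, adjusted p = 9.48e-05). Insm1, a zinc-finger factor of newborn neurons, had 21.2 and 15 FPKM in Foxa2-/- cells and 4.30, 3.66 and 2.80 FPKM in WT cells (2.05, SE 0.47). Srrm4, a neural splicing factor, had 8.93 and 9.19 FPKM in Foxa2-/- cells and 1.87, 1.73 and 1.5 FPKM in WT cells (1.90, SE 0.35). The mutant libraries lay close together for Dll1 and Srrm4 and above all WT libraries for all 3. Dll3, a divergent Delta ligand, rose by 1.82 (SE 0.36). The basic helix-loop-helix genes Neurod4 (2.01, adjusted p = 0.0374) and Nhlh1 (1.69, adjusted p = 0.045) lost their calls with only the day 7.5 libraries, with no filter, and when Foxa2-/- replicate 1, WT replicate 2 or WT replicate 3 was left out, and Nhlh1 also without Foxa2-/- replicate 2 and with the replicate number as a block. Neurog1 and Neurog2 stood below 0.2 FPKM in all 5 libraries.

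Of 17 pan-neuronal genes 3 were called higher and 1 lower, with a median of 0.78, and in other settings between 0 and 4 were called higher. Elavl3, an RNA-binding protein of young neurons, had 20.3 and 45.8 FPKM in Foxa2-/- cells and 9.46, 13 and 8.95 FPKM in WT cells (1.48, SE 0.49, adjusted p = 0.0318). Syt1, a synaptic vesicle calcium sensor, fell to 1.78 and 13.2 FPKM in Foxa2-/- cells, against 18.4, 38.9 and 38.5 FPKM in WT cells (-2.32, SE 0.48, adjusted p = 0.00127). Both calls ended with only the day 7.5 libraries, that of Elavl3 also without Foxa2-/- replicate 2, WT replicate 1 or WT replicate 3, and that of Syt1 also without Foxa2-/- replicate 1. Each of the 17 genes had a higher FPKM in Foxa2-/- replicate 2 than in replicate 1, and the list summed to 573.4 and 1081 FPKM in Foxa2-/- cells and to 446.2, 544.3 and 402.8 FPKM in WT cells. The lower mutant sum lay close to the highest WT sum.

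Of 8 visceral motor neuron genes 4 were called higher (2 to 5 in other settings) and none lower. Isl1, a LIM homeobox gene of motor neurons, had 22.1 and 9.18 FPKM in Foxa2-/- cells and 6.23, 1.89 and 1.02 FPKM in WT cells (2.14, SE 0.41, adjusted p = 0.000603), a call that ended with only the day 7.5 libraries. Tbx20, of visceral and branchial motor neurons, had 10.8 and 9.14 FPKM in Foxa2-/- cells and 3.33, 1.28 and 0.961 FPKM in WT cells (2.02, SE 0.43). WT replicate 1 was the highest WT library for both genes. Of 5 somatic motor neuron genes Slit3 alone was called, a fall already counted in the floor plate list. Mnx1 and Lhx3, which define the somatic class, stayed below 0.3 FPKM in all 5 libraries.

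Of 10 genes of serotonergic and dopaminergic neurons 3 were called lower and none higher, with a median of -0.78 (1 to 4 lower in other settings). Slc18a2, the vesicular monoamine transporter, stood at 13 and 11.5 FPKM in Foxa2-/- cells and at 118, 67.9 and 70.1 FPKM in WT cells (-2.65, SE 0.33, adjusted p = 3.75e-06). Th, tyrosine hydroxylase of the dopamine pathway, had 0.440 and 0.267 FPKM in Foxa2-/- cells and 22.3, 2.95 and 6.60 FPKM in WT cells (-2.72, SE 0.52). Tph2, the serotonin synthesis enzyme of neurons, had 0.127 and 0.759 FPKM in Foxa2-/- cells and 1.02, 3.91 and 2.56 FPKM in WT cells (-1.22, SE 0.26). The calls of Th and Tph2 ended with only the day 7.5 libraries, and that of Tph2 also without Foxa2-/- replicate 1. Fev, a transcription factor of serotonergic neurons, was not called (0.14, adjusted p = 0.823), nor was Gata3 (0.24, adjusted p = 0.803).

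The neural progenitor list was split, with 4 of 11 genes called higher, 2 lower and a median of 0.14. The higher genes were Pou3f2 and Pou3f3, which encode POU factors (1.88 each), Sox3 (1.89) and Sox1 (1.08). Pou3f3 stood at 25.1 and 32.1 FPKM in Foxa2-/- cells and at 5.63, 8.50 and 7.03 FPKM in WT cells. The calls of Sox1 and Sox3 ended with only the day 7.5 libraries, and that of Sox3 also without Foxa2-/- replicate 2. Prom1, which encodes the prominin used for the sort, fell to 72.2 and 52.6 FPKM in Foxa2-/- cells, against 212, 226 and 262 FPKM in WT cells (-1.90, SE 0.16, adjusted p = 2.04e-08). The groups were sorted on the product of a gene that differed between them, and its part in the other differences was not tested. Cdh2 (N-cadherin) fell by 1.26 (SE 0.17). Sox2 was not called, at 98.4 and 83.0 FPKM in Foxa2-/- cells and 93.9, 73.9 and 79.2 FPKM in WT cells (0.14, adjusted p = 0.52), nor were Nes, Vim and Msi1.

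Radial glial and gliogenic genes rose in 7 of 17 cases, and 1 fell (median 0.73, 4 to 8 higher in other settings). Sox9, a factor of gliogenic competence, stood at 36.4 and 61.4 FPKM in Foxa2-/- cells and at 7.13, 9.40 and 6.11 FPKM in WT cells (2.52, SE 0.42, adjusted p = 0.000157). Sox8, of the same SoxE family, had 13 and 23.5 FPKM in Foxa2-/- cells and 1.11, 1.29 and 1.04 FPKM in WT cells (3.11, SE 0.38). Hopx had 11.2 and 17.6 FPKM in Foxa2-/- cells and 0.983, 2.06 and 0.799 FPKM in WT cells (2.77, SE 0.34). Each of these was at least 3 times as high in the lower mutant library as in the highest WT library. Apoe, the lipid carrier of glia, had 32.2 and 118 FPKM in Foxa2-/- cells and 5.95, 4.22 and 4.65 FPKM in WT cells (3.42, SE 0.66). Clu (clusterin) fell by 1.92 (SE 0.55, adjusted p = 0.0131), a call that ended without Foxa2-/- replicate 1. Sox10, the third SoxE gene, did not pass the filter, at 0.996 and 5.83 FPKM in Foxa2-/- cells and 0, 0 and 0.0206 FPKM in WT cells, and Gfap stood below 0.4 FPKM in all 5 libraries. Fabp7 missed the threshold at 1017 and 967 FPKM in Foxa2-/- cells and 314, 567 and 501.2 FPKM in WT cells (1.15, adjusted p = 0.0534).

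Of 12 Notch receptors and effectors 3 were called higher and 2 lower. The ligand gene Jag1 had 28 and 35.6 FPKM in Foxa2-/- cells and 5.20, 6.64 and 3.93 FPKM in WT cells (2.40, SE 0.39), and the feedback gene Nrarp 30.7 and 33.3 FPKM in Foxa2-/- cells and 10.2, 6.28 and 4.26 FPKM in WT cells (2.13, SE 0.29). Hes5, the effector of Notch in progenitors, differed between the mutant libraries, at 8.70 and 95.0 FPKM in Foxa2-/- cells and 2.79, 4.37 and 3.04 FPKM in WT cells (2.81, SE 1.03, adjusted p = 0.0489), and its call ended without Foxa2-/- replicate 2 or any of the WT libraries, with only the day 7.5 libraries, with no filter or with isolated zeros as missing. Hey1, another effector, fell to 33.1 and 31.7 FPKM in Foxa2-/- cells, against 133.03, 88.6 and 88.0 FPKM in WT cells (-1.61, SE 0.19). Of the ID genes, inhibitors of basic helix-loop-helix factors, Id4 rose by 2.2 (SE 0.29) and Id2 by 1.26 (SE 0.29). The rise of Id1 (1.23, adjusted p = 0.0449) ended when any library was left out, and Id3 was not called (-0.92, adjusted p = 0.295).

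Genes of motile cilia were lower in the mutant in 16 of 21 cases and higher in 2, with a median of -1.59 (12 to 18 lower in other settings). Foxj1, the regulator of motile ciliogenesis that is counted with the floor plate list, stood at 1.43 and 4.05 FPKM in Foxa2-/- cells and at 30.1, 39.7 and 43.8 FPKM in WT cells (-3.46, SE 0.44, adjusted p = 6.12e-06). Dnahc9, a dynein heavy chain of the ciliary axoneme, had 0.239 and 0.304 FPKM in Foxa2-/- cells and 11.3, 19.5 and 19.3 FPKM in WT cells (-3.76, SE 0.23). Dnahc11, another dynein heavy chain, had 0.389 and 0.816 FPKM in Foxa2-/- cells and 15.9, 11.1 and 12.9 FPKM in WT cells (-3.16, SE 0.32). Drc1, of the complex that regulates ciliary beating, fell by 2.45 (SE 0.33), the tektin gene Tekt4 by 2.37 (SE 0.31) and the radial spoke gene Rsph4a by 1.93 (SE 0.25). Tppp3 had 19.5 and 96.6 FPKM in Foxa2-/- cells and 224, 231 and 270 FPKM in WT cells (-2.43, SE 0.69, adjusted p = 0.0129), a call that ended without Foxa2-/- replicate 1 or with only the day 7.5 libraries. The dynein intermediate chain genes went the other way. Dnaic1 stood at 4.05 and 3.97 FPKM in Foxa2-/- cells and at 1.01, 0.985 and 0.676 FPKM in WT cells (1.41, SE 0.35), and Dnaic2 rose by 1.86 (SE 0.46), a call that ended without Foxa2-/- replicate 2 or with only the day 7.5 libraries. Mcidas and Gmnc, the switches of multiciliated cells, stood below 0.1 FPKM in all 5 libraries.

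Genes of axon guidance signalling were called in both directions, against 13.6% of all genes higher and 12.1% lower. The shares higher and lower were 28.6% and 14.3% for netrin and Slit signalling. They were 11.1% and 33.3% for semaphorin and 17.6% and 23.5% for ephrin signalling. Several of these lie near the shares over all genes. Of 14 netrin and Slit signalling genes outside the floor plate list 4 were called higher and 2 lower. Robo1, a Slit receptor, stood at 10.3 and 11.5 FPKM in Foxa2-/- cells and at 2.36, 2.76 and 2.26 FPKM in WT cells (1.78, SE 0.38), and Unc5c, a netrin receptor of repelled axons, at 5.88 and 4.43 FPKM in Foxa2-/- cells and at 0.742, 0.865 and 0.345 FPKM in WT cells (1.90, SE 0.31). Unc5d, another netrin receptor, fell to 0.122 and 0.830 FPKM in Foxa2-/- cells, against 1.05, 2.71 and 2.33 FPKM in WT cells (-1.03, SE 0.24, adjusted p = 0.00356), a call that ended without Foxa2-/- replicate 1 or with only the day 7.5 libraries. Of 18 semaphorin signalling genes 6 were called lower and 2 higher. The co-receptor gene Nrp1 fell to 3.46 and 5.39 FPKM in Foxa2-/- cells, against 59.0, 52.5 and 57.7 FPKM in WT cells (-3.42, SE 0.24), and Nrp2 to 13.5 and 18.7 FPKM in Foxa2-/- cells, against 116, 149 and 183 FPKM in WT cells (-3.13, SE 0.18). The ligand genes Sema3e (-2.38) and Sema3c (-2.11) fell with them, and the plexin gene Plxna2 rose by 1.11 (SE 0.19). In ephrin signalling, with 3 of 17 genes higher and 4 lower, the ligands Efnb3 (-3.09, SE 0.34) and Efnb1 (-1.58, SE 0.23) fell, while the receptor gene Ephb1 rose to 35.9 and 43.7 FPKM in Foxa2-/- cells, against 5.22, 7.32 and 6.75 FPKM in WT cells (2.46, SE 0.17, adjusted p = 1.93e-09).

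Adhesion genes changed in both directions, 6 of 17 higher (35.3%) and 5 lower (29.4%), against 13.6% and 12.1% of all genes. Cdh11 had 45.1 and 44.6 FPKM in Foxa2-/- cells and 6.52, 7.90 and 7.69 FPKM in WT cells (2.46, SE 0.46), and Cdh8 2.11 and 2.06 FPKM in Foxa2-/- cells and 0.111, 0.0537 and 0.0620 FPKM in WT cells (1.52, SE 0.14). The protocadherin gene Pcdh8 fell by 3.56 (SE 0.25), the neural adhesion gene Nrcam by 2.72 (SE 0.30) and Cdh6 by 2.30 (SE 0.41). Of 13 epithelial genes 6 were called higher and none lower. Cldn7, a tight junction claudin, had 9.69 and 13.5 FPKM in Foxa2-/- cells and 0.924, 3.26 and 0.732 FPKM in WT cells (2.36, SE 0.40), and Epcam rose by 1.76 (SE 0.29), a call that ended with only the day 7.5 libraries. Of 20 matrix genes 5 were called lower, among them Vtn and the basement membrane nidogen Nid2 (-2.81, SE 0.48). The 2 called higher were the brain proteoglycan gene Ncan (27.9 and 52.1 FPKM in Foxa2-/- cells, against 5.8, 10.5 and 8.07 FPKM in WT cells) and Col18a1 (1.33, SE 0.34), which was not called without Foxa2-/- replicate 1 or with only the day 7.5 libraries.

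Several basement membrane and endoderm genes were low in replicate 1 of each group. Col4a1 (collagen IV) stood at 97.6 and 539 FPKM in Foxa2-/- cells and at 171, 773 and 753 FPKM in WT cells (-1.01, adjusted p = 0.485), and Lama1 (laminin) at 38.3 and 155 FPKM in Foxa2-/- cells and at 38.2, 246 and 258 FPKM in WT cells (-0.79, adjusted p = 0.534). Gata4, a factor of endoderm, stood at 10.8 and 32.4 FPKM in Foxa2-/- cells and at 5.95, 35.0 and 34.6 FPKM in WT cells (-0.06, adjusted p = 0.982). The 4 endoderm markers Sox17, Gata4, Gata6 and Afp summed to 16.0 and 42.3 FPKM in Foxa2-/- cells and to 9.39, 45.2 and 44.1 FPKM in WT cells. For each of these 3 genes the range within each genotype was wider than the difference between the genotype means. In the wider endoderm list 3 of 9 genes were called higher (among them Afp, 1.23, and Apoa2, 1.37) and 2 lower (Cldn9 -4.02, Ttr -1.48), and the part of these cells in the other results was not tested. The call of Ttr ended with only the day 7.5 libraries or a pseudocount of 0.1. Apoa2 was listed at 0 in all 3 WT libraries.

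Markers of other cell classes were measured too. The 3 endothelial and blood markers summed to 2.59 and 6.32 FPKM in Foxa2-/- cells and to 1.17, 10.6 and 10.8 FPKM in WT cells, with Ptprc listed at 0 in all 5 libraries. The 4 mesoderm markers summed to 1.93 and 1.59 FPKM in Foxa2-/- cells and to 13.8, 11.9 and 10.9 FPKM in WT cells, in WT cells nearly all of it from Twist1, which fell by 2.70 (SE 0.24). In the wider mesoderm and mesenchyme list 1 of 4 genes was called higher and 1 lower. The gene called higher was Pdgfrb, a growth factor receptor of mesenchyme and pericytes, at 5.93 and 9.57 FPKM in Foxa2-/- cells and 1.68, 1.4 and 1.21 FPKM in WT cells (1.82, SE 0.28). The 3 pluripotency markers summed to 22.4 and 8.03 FPKM in Foxa2-/- cells and to 2.06, 1.81 and 2.61 FPKM in WT cells. Of these Pou5f1 rose to 19.6 and 6.37 FPKM in Foxa2-/- cells, against 0.973, 0.478 and 0.664 FPKM in WT cells (2.86, SE 0.51, adjusted p = 0.000286), while Nanog stood at 2.12 and 0.254 FPKM in Foxa2-/- cells and 0.762, 0.403 and 0.484 FPKM in WT cells (0.36, adjusted p = 0.478). In the wider pluripotency list 3 of 9 genes were called higher and 1 lower. The gene called lower was Klf4, at 2.05 and 5.65 FPKM in Foxa2-/- cells and 8.81, 10.9 and 10.2 FPKM in WT cells (-1.28, SE 0.29, adjusted p = 0.00263), a call that ended without Foxa2-/- replicate 1 or with only the day 7.5 libraries. The 4 genes of contractile smooth muscle that fell, of 9 tested, included Tagln (-4.79, SE 0.86) and Acta2 (-3.65, SE 0.79). The 3 astrocyte markers summed to 58.4 and 62.5 FPKM in Foxa2-/- cells and to 33.9, 24.4 and 27.5 FPKM in WT cells, nearly all of it from Aldh1l1.

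Of 12 TGF-beta pathway genes 7 were called lower and none higher (3 to 7 lower in other settings), with a median of -0.80. The receptor gene Tgfbr2 stood at 1.28 and 2.91 FPKM in Foxa2-/- cells and at 17.4, 21.6 and 24 FPKM in WT cells (-2.87, SE 0.37, adjusted p = 7.55e-06). The ligand gene Tgfb2 had 3.31 and 2.31 FPKM in Foxa2-/- cells and 16.3, 9.11 and 9.94 FPKM in WT cells (-1.72, SE 0.31). The latency gene Ltbp1 fell by 1.46 (SE 0.29), a call that ended with only the day 7.5 libraries, and the effector gene Smad3 by 0.99 (SE 0.33, adjusted p = 0.0306), a call that ended without WT replicate 1 or 3 or either Foxa2-/- replicate. Of 13 BMP genes 3 were called lower and 1 higher. The lower ones were Bmp1, a protease that also processes collagens (-3.26, SE 0.41), and the ligand genes Bmp7 (-2.35, SE 0.45) and Bmp2 (-1.12, SE 0.18). The higher one was the decoy receptor gene Bambi (0.60, SE 0.20, adjusted p = 0.0313), a call that ended in 7 of 16 other settings. The BMP ligand gene Bmp4 missed the threshold (-1.04, adjusted p = 0.0601).

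WNT genes changed in both directions, 5 of 18 higher (27.8%) and 4 lower (22.2%), against 13.6% and 12.1% of all genes. The ligand gene Wnt4 fell to 0.586 and 0.485 FPKM in Foxa2-/- cells, against 31.8, 26.2 and 33.0 FPKM in WT cells (-4.34, SE 0.23). Among the secreted WNT inhibitors, Sfrp1 rose to 159 and 202 FPKM in Foxa2-/- cells, against 30.1, 30.1 and 32.2 FPKM in WT cells (2.50, SE 0.16, adjusted p = 3.31e-10), while Sfrp2 fell to 10.4 and 7.07 FPKM in Foxa2-/- cells, against 94.4, 62.7 and 65.4 FPKM in WT cells (-2.94, SE 0.34). Frzb rose by 1.55 (SE 0.25). Of 16 FGF genes 5 were higher and 1 lower. Fgfbp3, a carrier of FGFs, had 167 and 146 FPKM in Foxa2-/- cells and 25.3, 13.9 and 13.5 FPKM in WT cells (3.14, SE 0.48), and the feedback inhibitor genes Spry2 and Spry1 rose by 1.47 (SE 0.26) and 1.38 (SE 0.29). Fgf15 stood at 23.5 and 0.350 FPKM in Foxa2-/- cells and below 0.2 FPKM in WT cells (2.38, adjusted p = 0.0614).

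In the insulin-like growth factor axis 5 of 13 genes were lower and none higher. Igfbp3 had 5.96 and 2.24 FPKM in Foxa2-/- cells and 24.1, 53.8 and 45.6 FPKM in WT cells (-3.07, SE 0.36), and the adaptor gene Irs1 4.82 and 5.62 FPKM in Foxa2-/- cells and 34.0, 36.1 and 41.2 FPKM in WT cells (-2.61, SE 0.25). The falls of Igfbp2 (-2.34), Igf2 (-1.37) and Igfbp5 (-1.11) were not called without Foxa2-/- replicate 1, those of Igf2 and Igfbp5 also not without Foxa2-/- replicate 2, without WT replicate 1 or with array weights, and that of Igfbp5 also not without WT replicate 3 or with only the day 7.5 libraries. Of 11 genes of retinoic acid handling 2 were higher. Cyp26b1, an enzyme that degrades retinoic acid (chromosome 6, 84571414 to 84593908), rose to 24.5 and 52.9 FPKM in Foxa2-/- cells, against 0.557, 0.387 and 0.403 FPKM in WT cells (4.68, SE 0.43, adjusted p = 7.39e-08). Cyp26a1 rose by 0.73 (adjusted p = 0.039), a call that ended without either Foxa2-/- replicate, without WT replicate 1 or 3, with array weights, with a pseudocount of 0.1 and with only the day 7.5 libraries.

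Genes of position along the neural axis came from 3 lists. Of 16 HOX genes tested Hoxa2 alone was called (0.91, SE 0.29, adjusted p = 0.0252), at 12.6 and 13.4 FPKM in Foxa2-/- cells and 8.46, 5.46 and 5.79 FPKM in WT cells, and the call ended without either Foxa2-/- replicate, without WT replicate 2 or 3 and with only the day 7.5 libraries. The 15 others had log2 fold changes between -0.63 and 1.12. Of 6 brain regulators outside the HOX clusters 2 were called higher and 1 lower, with a median of 1.09. Lhx2, a forebrain LIM homeobox gene, rose to 2.82 and 2.23 FPKM in Foxa2-/- cells, against 0.397, 0.367 and 0.342 FPKM in WT cells (1.36, SE 0.24, adjusted p = 0.000236). Pax5, also called higher, had 3.84 and 0.0676 FPKM in Foxa2-/- cells and was listed at 0 in all 3 WT libraries, a call that ended in 7 of 15 other settings. En2, of midbrain and anterior hindbrain, fell to 0.301 and 0.243 FPKM in Foxa2-/- cells, against 0.681, 1.93 and 1.32 FPKM in WT cells (-0.82, SE 0.16, adjusted p = 5e-04), a call that ended with only the day 7.5 libraries. All 3 genes were below 4 FPKM in every library. No gene of the 8 intermediate and dorsal progenitor factors tested was called, with a median of 0.40. Pax6 stood at 2.21 and 4.18 FPKM in Foxa2-/- cells and 3.59, 4.74 and 6.08 FPKM in WT cells (-0.49, adjusted p = 0.486).

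Cell cycle genes were higher in the mutant, mostly through Foxa2-/- replicate 1. Of 17 mitosis genes 16 were called higher, none lower, with a median of 1.05, and of 14 DNA replication genes 8 were higher and none lower. Mki67, a marker of cycling cells, stood at 63.0 and 35.5 FPKM in Foxa2-/- cells and at 16.3, 18.1 and 21.6 FPKM in WT cells (1.3, SE 0.29, adjusted p = 0.00194). Top2a, the topoisomerase of dividing cells, had 273 and 117 FPKM in Foxa2-/- cells and 78.6, 69.1 and 82.1 FPKM in WT cells (1.22, SE 0.30). The helicase gene Mcm7 had 165 and 70.7 FPKM in Foxa2-/- cells and 42.2, 35.2 and 39.3 FPKM in WT cells (1.46, SE 0.26). For these genes replicate 2 also lay above every WT library, by less. Without Foxa2-/- replicate 1, 1 mitosis gene and 2 DNA replication genes were called, and likewise with only the day 7.5 libraries. Without replicate 2 the counts were 16 and 12. Kif20a, the mitosis gene not called, was listed at 0 in Foxa2-/- replicate 1 and at 23.0 FPKM in replicate 2.

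Genes of the LIN28 timing pathway, which holds progenitors in an early state, showed the same split. Lin28a stood at 63.2 and 9.53 FPKM in Foxa2-/- cells and at 7.49, 1.66 and 3.15 FPKM in WT cells (2.52, SE 0.62, adjusted p = 0.00497), and Hmga2 at 43.6 and 12.5 FPKM in Foxa2-/- cells and at 9.60, 3.64 and 3.83 FPKM in WT cells (1.99, SE 0.44). Of 8 members 5 were called higher, 1 without Foxa2-/- replicate 1 and 0 with only the day 7.5 libraries. Of the other lists, cholesterol synthesis had 4 of 16 genes higher (0 with only the day 7.5 libraries and 9 without WT replicate 1), glycolysis and hypoxia 2 of 15 lower (0 without Foxa2-/- replicate 1) and ATF4 amino acid stress 1 of 13 higher, the serine synthesis gene Phgdh (0.93, SE 0.20). Of 11 immediate early and heat shock genes 3 were higher, among them Fosb at 6.92 and 6.90 FPKM in Foxa2-/- cells and 0.577, 0.781 and 0.817 FPKM in WT cells (2.2, SE 0.23), and 1 was lower, Atf3 (-1.71), whose call ended without Foxa2-/- replicate 1 or with only the day 7.5 libraries. Of 11 genes of cell cycle exit 1 was higher, Ccne1, and 1 lower, Cdkn2b, and neither was called without Foxa2-/- replicate 1 or with only the day 7.5 libraries, nor Ccne1 without WT replicate 2 or 3 or with no filter. The neural crest list had 0 of 4 called.

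**Figure D4:**
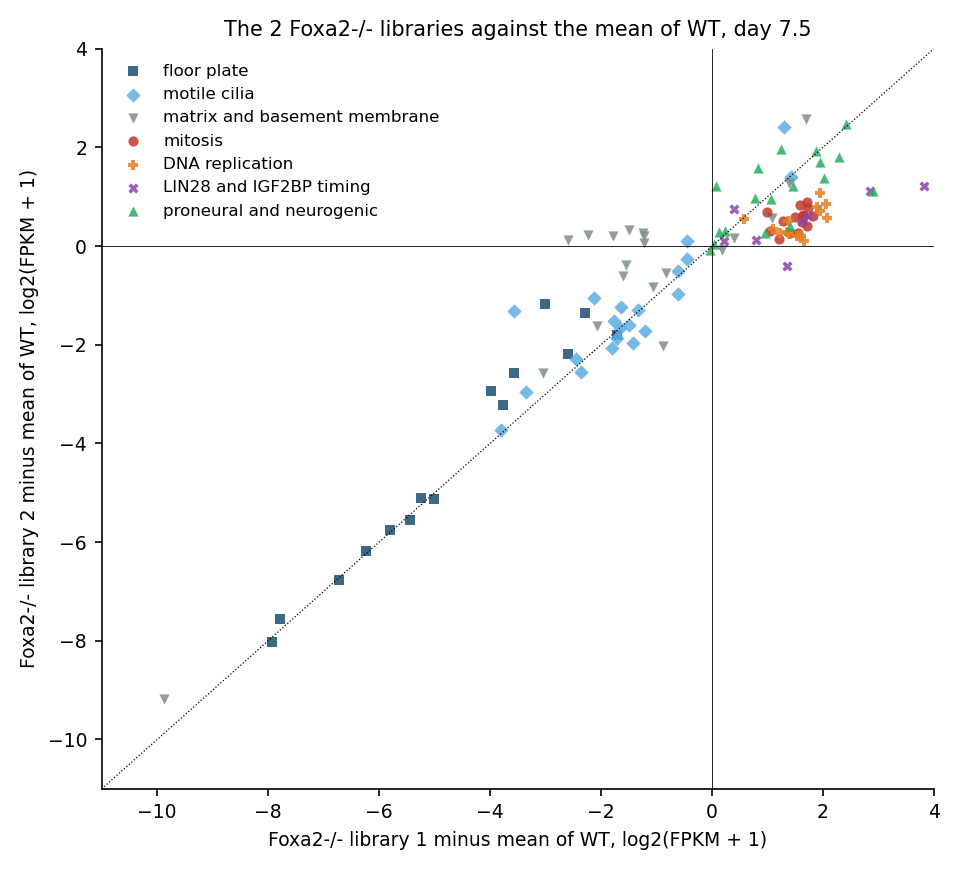
Difference of Foxa2-/- library 1 (horizontal) and of Foxa2-/- library 2 (vertical) from the mean of the 3 WT libraries, in log2(FPKM + 1), for the tested members of 7 gene lists, without Kif20a; the dotted line marks equal differences. Floor plate and most motile cilia genes lie near the line, most mitosis, DNA replication and LIN28 genes lie below it (Top2a had 273 and 117 FPKM), and several matrix genes such as Col4a1 (97.6 and 539 FPKM) lie above it.

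The 12 largest rises under the naming rule were led by mt-Tk, a mitochondrial transfer RNA gene that was listed at 0 in all 3 WT libraries and at 138.6 and 304 FPKM in Foxa2-/- cells. Its call ended when any of the 5 libraries was left out, with no filter, with array weights, with the length trend removed and with the replicate number as a block. Grb10, an imprinted adaptor of insulin receptor signalling (chromosome 11, 11930508 to 12038683), stood at 68.3 and 35.6 FPKM in Foxa2-/- cells and at 0.694, 0.671 and 1.29 FPKM in WT cells (4.75, SE 0.32). S100g, a calcium-binding protein gene, had 35.0 and 47.9 FPKM in Foxa2-/- cells and 0, 1.17 and 2.06 FPKM in WT cells (4.48, SE 0.45). The secreted factor gene Ndnf had 51.9 and 58.7 FPKM in Foxa2-/- cells and 2.87, 3.76 and 2.29 FPKM in WT cells (3.84, SE 0.38). Ptx3, a long pentraxin, had 45.4 and 16.7 FPKM in Foxa2-/- cells and 2.66, 0.647 and 0.917 FPKM in WT cells (3.66, SE 0.52). Ndst3, which sulphates heparan chains, rose by 3.55 (SE 0.31), Apoe by 3.42, Pls1 (plastin 1) by 3.41 (SE 0.21), Fam84a by 3.33 (SE 0.39), the acyl-CoA synthetase gene Acsbg1 by 3.25 (SE 0.48), and an unnamed gene model on chromosome 3 by 3.60 (SE 0.63). The naming rule admitted only genes whose libraries did not overlap. By that choice each of these genes was higher in both mutant libraries than in any WT library. Of all genes tested, 47.4% had libraries that did not overlap, counting both directions.

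Small non-coding RNA genes, which poly-A selection is not meant to capture, made up 4.86% of genes tested, 1.58% of those called higher and 0.337% of those called lower. They made up 11 of the 14 genes called higher by more than 4 log2 units, and 9 of these were listed at 0 in every WT library. The Foxa2-/- libraries were also the deeper ones (26600000 or more fragments in Foxa2-/- libraries and 19300000 or fewer in WT libraries), and the part of depth in these rises was not tested. Of 51 genes called lower by more than 4 units, 2 were small RNA genes and 44 protein-coding.

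The differences were set beside those of earlier days to see which were already present. On day 3.5, the first day of sorted cells, 579 genes were called (3.38%), 116 higher (0.677%) and 463 lower (2.70%), between 3 libraries of each genotype. Of these 463, 333 were also lower at day 7.5 (71.9% of the day 3.5 list and 16% of the day 7.5 list), and 56 of the 116 were higher on both days (48.3% and 2.4%). Of the 15 floor plate genes 12 were already lower on day 3.5. The genotype effect on day 7.5 differed from that on day 3.5 in 1270 genes (7.42%), 635 in each direction (3.71% each). The count was 2140 with array weights, and with quantile normalization 607 were called in the higher and 909 in the lower direction. For a gene near 0 on the earlier day the added 1 can leave such a difference even where the fold is constant.

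Corin, Ferd3l, Cmtm8, Shh and Foxa1 were among the 8 floor plate genes whose fall grew over that time. The effect on Corin was larger by 5.67 (SE 0.80, adjusted p = 0.00012), with WT levels of 4.77 ± 0.847 FPKM on day 3.5 (SD, n = 3) and 282 ± 42.6 FPKM on day 7.5 (n = 3) and mutant levels of 0.161 ± 0.101 (n = 3) and 0.113 ± 0.0475 FPKM (n = 2). The test was not passed by Foxa2 (-0.76, adjusted p = 0.113) or Ntn1 (-0.65, adjusted p = 0.435). Of the cilia genes 11 of 21 fell further, Foxj1 by 2.98 (SE 0.59, adjusted p = 0.0031), and 9 of 18 neurogenic genes rose further, Dll1 by 2.35 (SE 0.53, adjusted p = 0.00789). Of the p3 list Nkx2-2 alone passed (2.23, SE 0.43, adjusted p = 0.00264), and of the SHH targets Ptch1 alone (1.42, SE 0.30, adjusted p = 0.00542). Ptch1 stood at 106 ± 21.0 FPKM in Foxa2-/- and 78.2 ± 15.3 FPKM in WT cells on day 3.5 (SD, n = 3 each) and at 117 ± 34.8 (n = 2) and 31.1 ± 3.55 FPKM (n = 3) on day 7.5. The WT mean was lower on the later day and the mutant mean was not, a difference over time that was not tested. Sox8 rose further by 3.04 (SE 0.51), with 1.49 ± 0.734 FPKM in Foxa2-/- and 1.3 ± 0.110 FPKM in WT cells on day 3.5 (n = 3 each), and 18.2 ± 7.46 (n = 2) and 1.14 ± 0.131 FPKM (n = 3) on day 7.5. The effect on Igfbp5 shrank, with fold changes of -3.07 on day 3.5 and -1.11 on day 7.5 (difference 1.97, SE 0.48, adjusted p = 0.0134).

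**Figure D5:**
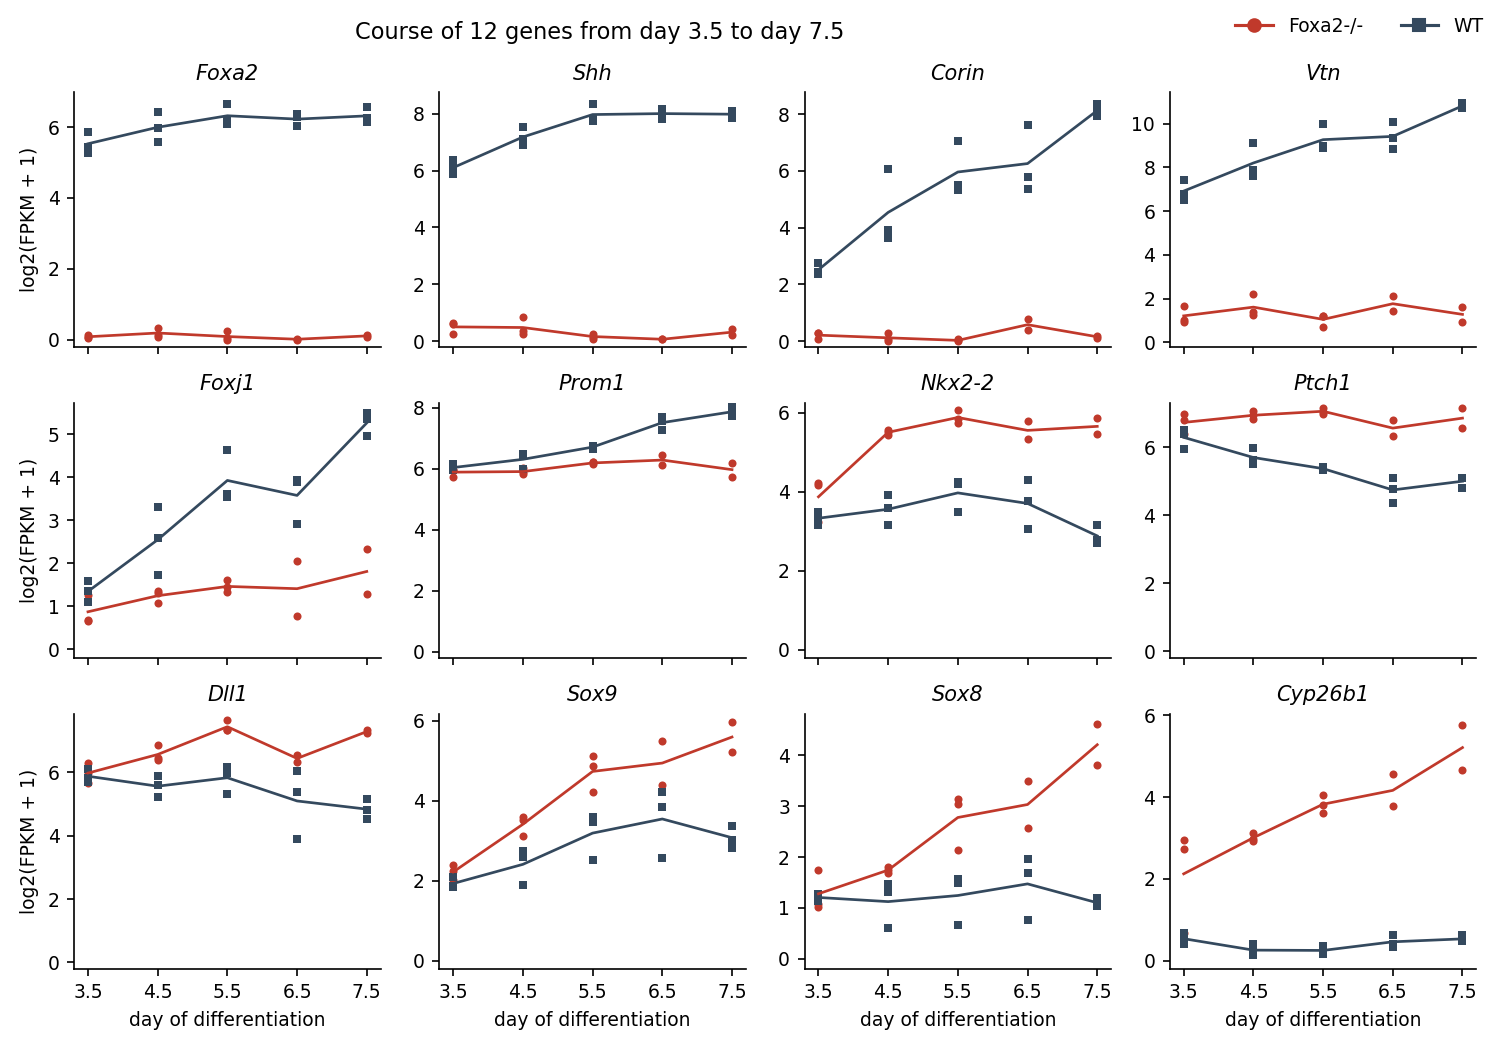
Log2(FPKM + 1) of 12 genes on days 3.5 to 7.5 in Foxa2-/- (red circles, 3 libraries up to day 5.5, then 2) and WT cells (dark squares, 3 libraries a day); points are libraries and lines join group means, and each panel has its own vertical scale from about 0. Corin, Vtn, Foxj1 and Prom1 are higher in WT cells on day 7.5 than on day 3.5, while Sox9, Sox8 and Cyp26b1 are higher in Foxa2-/- cells on day 7.5 than on day 3.5.

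Of the genes called on both days, 11 changed direction. Car4, Cdh1, Cpn1, Map2, Masp1, Nptx2, Pik3r1, Rnf128, Snx18 and Tpd52 were lower in the mutant on day 3.5 and higher on day 7.5, and Fhl1 was higher and then lower. They are all the genes with that pattern and were listed after their values were seen. Cdh1 (E-cadherin) had a fold change of -2.24 on day 3.5 (adjusted p = 2.16e-06) and 0.92 on day 7.5 (adjusted p = 0.012), with 13.9 and 10 FPKM in Foxa2-/- cells and 7.50, 4.68 and 5.37 FPKM in WT cells on the later day. Its call on day 7.5 ended without Foxa2-/- replicate 1 or WT replicate 2 or with only the day 7.5 libraries. Masp1, a protease of the complement lectin pathway, had -1.59 and 2.26, with 11.7 and 19.8 FPKM in Foxa2-/- cells and 2.35, 2.1 and 2.74 FPKM in WT cells on day 7.5. The day 7.5 call of Map2 ended without either Foxa2-/- replicate, without WT replicate 1 or 3 or with only the day 7.5 libraries. That of Car4 ended without Foxa2-/- replicate 1 or with only the day 7.5 libraries. On day 6.5 Cdh1 (-0.07), Map2 (-0.54), Pik3r1 (-0.20) and Tpd52 (-0.34) were not called. Cpn1 and Rnf128 were not called either, while Car4, Masp1, Nptx2 and Snx18 were called higher and Fhl1 lower on that day.

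Day 6.5, with 2 Foxa2-/- and 3 WT libraries, gave 4264 called genes (24.9%), 2220 higher (13.0%) and 2044 lower (11.9%). Of the genes called at day 7.5, 1342 were lower on both days (64.7% of those lower at day 7.5) and 1175 higher on both (50.3%), and 5 were called in opposite directions. Deviations of same-numbered Foxa2-/- libraries of the 2 days from their group means correlated at 0.54, so the 2 comparisons may not be independent. The genotype effect differed between the 2 days in 15 genes (0.0876%), 8 in the higher (0.0467%) and 7 in the lower direction (0.0409%), with 2051 at an unadjusted p under 0.05. Ndrg2, a gene of glial cells, had 11.5 and 16.0 FPKM in Foxa2-/- cells and 2.42, 2.63 and 1.98 FPKM in WT cells on day 7.5, and 2.23 ± 0.192 (n = 2) and 2.30 ± 1.21 FPKM (n = 3) on day 6.5 (difference 2.08, SE 0.32, adjusted p = 0.00628). The prodynorphin gene Pdyn fell further by 2.19 (SE 0.42), at 0.0157 and 0.0344 FPKM in Foxa2-/- cells and 36.5, 26.1 and 21.2 FPKM in WT cells. Both calls ended with a pseudocount of 0.1, with only the groups compared and without Foxa2-/- replicate 2 of day 7.5, and the count ranged from 1 to 644 when a library was left out.

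Undifferentiated cells (3 Foxa2-/- and 2 WT libraries), in a table scaled separately, were used to see which differences precede differentiation. There 62 of 16465 genes were called (0.377%), 13 higher (0.0790%) and 49 lower (0.298%). Of the 10 higher and 15 lower genes also tested at day 7.5, 4 that were higher (Grb10, Clic6, Dll1 and Pde4b) and 8 that were lower (Arhgap6, Gm21882, Hccs, Igf2, Kdm5d, Ppl, Timp2 and Uba1y) were called in the same direction at day 7.5. Ccser1 was called in opposite directions, at -0.74 in undifferentiated cells and 0.85 on day 7.5. Grb10 had a fold change of 2.45 in undifferentiated cells, 5.21 on day 3.5 and 4.75 on day 7.5. The other genes higher in both were not called on day 3.5 (Dll1 0.10, Clic6 -0.03 and Pde4b -0.06). Of the lower genes Timp2 (-0.43) and Uba1y (-0.18) were not called on day 3.5, and the others were called lower. Arhgap6 (chromosome X, 168795099 to 169304435), stood at 0.327 and 1.57 FPKM in Foxa2-/- cells and at 16.6, 14.5 and 12.8 FPKM in WT cells at day 7.5 (-3.07, SE 0.21). Hccs, which overlaps it on the X chromosome (169250193 to 169320372), fell by 0.68 (SE 0.19). Of the Y-linked genes Uty, Ddx3y and Kdm5d fell by 1.11, 1.09 and 1.09, with Ddx3y at 8.02 and 11.9 FPKM in Foxa2-/- cells and 24.1, 22.2 and 19.8 FPKM in WT cells, and for the Y-linked gene Eif2s3y the difference was -0.66 (adjusted p = 0.103). The calls of Ddx3y and Kdm5d ended without Foxa2-/- replicate 1, and those of Uty and Kdm5d with only the day 7.5 libraries. Of the imprinted list 4 of 19 genes were higher (Grb10, Plagl1, Nnat and Phlda2) and 4 lower (Peg3, Zim1, Snrpn and Sgce). Without Foxa2-/- replicate 2 Phlda2 and Sgce were not called, Sgce also not without any of the WT libraries, and none of Phlda2, Zim1 and Sgce was called with only the day 7.5 libraries. Nnat stood at 882 and 2055 FPKM in Foxa2-/- cells and at 380, 325 and 295 FPKM in WT cells (2.02, SE 0.37). None of the 15 floor plate genes, where tested, was called in undifferentiated cells, where the difference of Foxa2 was -0.70 (adjusted p = 0.159).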

How the data were processed

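The authors deposited FPKM values per gene in tables of the whole series. The submitters' processing notes name, with no role or order, TopHat2 2.0.4, Cufflinks 2.1.1, HTSeq 0.6.1, bcl2fastq 1.8.3, limma, CASAVA and the builds mm10 and GRCm38. FPKM is not a count, so limma (3.58.1, R 4.3.3) was run on log2(FPKM + 1) over the 28 libraries of days 3.5 to 7.5, with a trend in the prior variance, a filter of 1 FPKM in at least 2 libraries, and Benjamini-Hochberg adjustment over all 17124 genes, called at 0.05. Interactions were contrasts of the same model, and undifferentiated cells were fitted in their own table. Table columns of samples not listed here numbered 3 and were not used. The depths were estimated from the steps between low FPKM values. In data simulated for the day 7.5 comparison on 17124 genes, 60% of changes of 1 log2 unit and 91% of changes of 2 were called. The changes were placed only in genes averaging above 2 on the log2(FPKM + 1) scale. Each gene's spread was pooled over the 10 groups, so the wider spread between the Foxa2-/- libraries of day 7.5 was not modelled separately.

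The members and gene lists were chosen with earlier results of these data known. Named genes were Foxa2 and Nkx2-2, the 12 largest called rises and falls averaging at least 5 FPKM in either group with no overlap of libraries and no isolated 0, up to 6 called genes per list and direction, all floor plate, p3 and SHH target genes, and the 6 largest interactions per direction. From the largest rises, falls and interactions, names starting with Gm and a digit, Mir, Snor, Rn, LOC or AC and digits, or ending in Rik, were left out. That filter on names did not remove mt-Tk or the unnamed gene model on chromosome 3. List members named although not called, and Kif20a, Col4a1, Lama1, Gata4 and Ccser1, were chosen after their values were seen. A few genes picked by this rule are not reported here. Pseudocount, filter, normalization, the libraries fitted, a replicate block, array weights and leaving out each library were varied, and removal of a GC or length trend was added after seeing the data. Promoters came from RefSeq's GRCm38.p6 table and gene positions from GENCODE M21. Python 3.11.15, pandas 2.3.3 and matplotlib 3.10.9 were used.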

Additional observations from a re-analysis of the deposited data

Results flagged for a closer look

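Genes whose genotype effect differed between days by the interaction test of limma (Benjamini-Hochberg adjusted p under 0.05) are given here, from the 6 largest in each direction. No group held 4 or more libraries, so single libraries were not tested as outliers.

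Between day 3.5 and day 7.5 the effect of the Foxa2-/- genotype moved up for Car4, a carbonic anhydrase gene (4.45), Ptx3 (3.98), Masp1 (3.85), an unnamed gene model on chromosome 3 (3.74), Ndst3 (3.58) and Cntn2, which encodes an axonal adhesion molecule (3.55). It moved down for Corin (-5.67), Gkn2 (-5.58), Pdyn (-4.78), Lgi3 (-4.28) and Cmtm8 (-4.09). Gkn2 was listed at 0 in both Foxa2-/- libraries and stood at 23.0, 65.0 and 67.8 FPKM in WT cells on day 7.5. Car4 stood at 27.2 and 17.8 FPKM in Foxa2-/- cells and at 12.2, 1.47 and 1.84 FPKM in WT cells on day 7.5, with fold changes of -2.11 on day 3.5 and 2.35 on day 7.5. The call of Cntn2 ended in 8 of the settings that leave out a library, and that of the unnamed gene model ended without Foxa2-/- replicate 2 of day 7.5.

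Between day 6.5 and day 7.5 the effect moved up for Ndrg2 (2.08), Kcna6, a potassium channel gene (1.90), Ppp1r14c, a phosphatase inhibitor gene (1.82), and Mmd2 (1.37), and down for Pdyn (-2.19), Golim4, a Golgi protein gene (-1.63), and Fam211a (-0.89). Of 22 other settings these calls ended in 3 for Ndrg2, 10 for Kcna6, 8 for Ppp1r14c, 7 for Mmd2, 11 for Pdyn, 12 for Golim4 and 12 for Fam211a. Golim4 stood at 63.7 and 54.7 FPKM in Foxa2-/- cells and at 258, 391.8 and 421 FPKM in WT cells on day 7.5. Mmd2 stood at 6.39 and 7.38 FPKM in Foxa2-/- cells and at 0.355, 0.353 and 0.400 FPKM in WT cells.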

How the results depend on the processing

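Of the 4411 genes called at day 7.5, 1869 were among the 2015 called with only the day 7.5 libraries, where the share higher was 39.5%, against 53% in the full model. Leaving out a library gave 2315 to 4518 calls, the lowest without Foxa2-/- replicate 1 (41.3% higher). Other settings gave 3362 (array weights) to 5182 (no filter), with 5010 after a GC trend and 4615 after a length trend was removed. Of the list genes 241 were called, 142 with only the day 7.5 libraries and 156 to 222 with a library left out. The difference between days 7.5 and 3.5 held 1270 genes, 2140 with array weights and 853 to 1261 with a library left out. The share in the higher direction, 50%, was 40% with quantile normalization, 42.7% with median-of-ratios factors and 62.7% without Foxa2-/- replicate 2 of day 7.5. The difference between days 7.5 and 6.5 held 15 genes, 1 with a pseudocount of 0.1, 79 without the filter, 6 with array weights, 338 where isolated zeros counted as missing, and 1 to 644 with a library left out (644 without WT replicate 1 of day 6.5). In undifferentiated cells 62 genes were called, 165 with no filter and 21 to 45 with a library left out. The cause of these changes was not tested. Ccnd1, not called at -0.09, was 0.01 with array weights, -0.87 without Foxa2-/- replicate 1, 0.11 without WT replicate 1 and 0.69 without Foxa2-/- replicate 2. Over the named genes and settings of day 7.5, 3759 results kept their direction and side of the threshold, 363 lost the call, 6 gained it and 3 reversed. Replicate numbers are given by the labels. Deviations of same-numbered libraries from their group means correlated at 0.17 to 0.18 between the genotypes at day 7.5. Over all pairs of groups the range was -0.26 to 0.54, with 0.54 between the Foxa2-/- libraries of days 6.5 and 7.5. Foxa2-/- replicates 1 of these days correlated at r = 0.954 and replicates 2 at 0.946, against 0.926 between the 2 of day 7.5. Whether the numbers mark shared cultures or a batch is not given in the sources used here. With the replicate number as a block 4554 genes were called at day 7.5, 250 list genes, 1525 between days 7.5 and 3.5 and 24 between days 7.5 and 6.5. The depth of 15500000 to 29100000 fragments and the added 1 limit what can be seen below about 1 FPKM.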
